A study of Mus musculus with 36 samples.

Results

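A module of 40 genes was followed: Myc, 3 enzymes of polyamine and pyrimidine synthesis that are classical Myc targets, and 36 genes for nucleolar proteins and ribosome assembly. The members were chosen by a list of gene symbols, and all 40 were found among the 24411 genes of both deposited tables. Every member reached 1 TPM in all 36 libraries, so each passed the filter on low values in every comparison. TPM is the usual length-scaled unit of RNA sequencing, the share of a library's transcripts per length of transcript.

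Haematopoietic stem and progenitor cells from mouse bone marrow, with conditional knockout of Taf1 (genotype Taf1 KO) or from controls (genotype WT), were differentiated in culture, to ask how loss of Taf1 affects differentiation. Both genotypes were sampled at day 0 and, after expansion in IL-3 and SCF, at day 3. Later samples came from days 5 and 7 of a macrophage course (M-CSF, with GM-CSF in the first part) and of a granulocyte course (G-CSF, with IL-3 and SCF in the first part). Medium held 20% horse serum and each cytokine was at 50 ng/ml in both genotypes. The 36 libraries formed 12 groups of 3, with the day 0 and day 3 libraries shared by both courses. The sources used here do not give how Taf1 was deleted, which part of it was deleted, the age of the mice or whether replicates came from separate mice, so p-values measure the spread between these libraries, which may be technical.

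Myc is a transcription factor that binds DNA with its partner Max and is known to raise the output of genes for cell growth. Ribosome production starts in the nucleolus, where RNA polymerase I transcribes the ribosomal RNA precursor. Small nucleolar ribonucleoproteins (snoRNPs) then modify that RNA, and separate sets of assembly factors cut, fold and package it into the 40S and 60S subunits. Progenitor cells that divide fast are known for high expression of this machinery, which declines as blood cells mature. Taf1 belongs to TFIID, which binds core promoters as a first step of transcription by RNA polymerase II.

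Taf1 itself was lower in every Taf1 KO library than in every control library at 5 of the 6 stages. At day 3 the libraries overlapped, with 8.66 to 10.29 TPM in Taf1 KO cells and 9.62 to 11.45 TPM in control cells, and the log2 difference of -0.17 missed the threshold (limma adjusted p = 0.0711; -0.21 and 0.00748 after median-of-ratios scaling). The progenitor list (Kit, Cd34, Myb and 7 others) summed to 680 to 802 TPM in Taf1 KO cells and 672 to 779 TPM in control cells at day 0. At day 7 of the macrophage course the macrophage list summed to 9600 to 12900 TPM in Taf1 KO cells and 6040 to 8660 TPM in control cells, and at day 7 of the granulocyte course the neutrophil list summed to 153000 to 175000 TPM and 123000 to 173000 TPM in Taf1 KO and control cells. Nearly all of that sum was S100a8 and S100a9, and of the 15 neutrophil genes 3 were higher and 6 lower in Taf1 KO cells, with a median log2 difference of -0.82. Control replicate 1 stood apart at day 5, with neutrophil sums of 59700 TPM in the macrophage course and 64800 TPM in the granulocyte course, against at least 159000 TPM in the other control libraries of that day. These are bulk libraries, in which fewer cells of a type and less RNA per cell cannot be told apart.

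The members lay on 18 chromosomes, at most 6 of them on one (chromosome 11). Myc spans 61985391 to 61990374 on the plus strand of chromosome 15, Bop1 lies on the minus strand of the same chromosome at 76452989 to 76477277, and Cad spans 31054780 to 31078479 on the plus strand of chromosome 5 (mm10, GENCODE M21). Of the 40 members, 9 (22.5%) carried a snoRNA gene inside their span on the same strand, against 205 of 11110 tested protein-coding genes (1.85%). These hosts were Ncl, Nop56, Nop58, Dkc1, Wdr43, Tsr1, Ppan, Gnl3 and Odc1, and Nop56, itself a core protein of box C/D snoRNPs, held 5 such genes. Exons of 16 members overlapped an exon of a gene on the other strand, among them Bop1 with Mroh1 and Nhp2 with Rmnd5b. The library kit keeps strand, but whether the counting used it is not stated, so values of those 16 members are uncertain by what their partners could add.

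Promoters of 33 members were found in the RefSeq table (GRCm38.p6), each reaching from 250 bases before to 50 bases after an annotated transcript start. That start can lie inside the gene, as for Rrp9. Wdr12 and Rrp1b had more than a single window, and a match in any of them counted. Rrp12, Fbl, Bop1, Npm1, Rrs1, Myc and Srm had no match. Both strands were searched for CACGTG, the E-box that Myc with Max is known to bind, for GGGCGG, the GC box, and for TATAAA, the TATA box. CACGTG stood in promoters of 6 of the 33 members (18.2%) and of 8.09% of 27025 genes, GGGCGG in 25 of 33 (75.8%) and 38.2%, and TATAAA in 3 of 33 (9.09%) and 15.7%. Those 27025 genes are all genes with a listed promoter, expressed here or not, whereas every member was expressed. Shares over expressed genes alone were not counted, so these differences cannot be read as particular to the module. The 2 promoters printed first belong to the matched members with the largest day 3 differences, Cad (chr5:31054530-31054829, plus strand) and Ftsj3 (chr11:106256035-106256334, minus strand), with GGGCGG or its reverse complement in capitals.
Cad: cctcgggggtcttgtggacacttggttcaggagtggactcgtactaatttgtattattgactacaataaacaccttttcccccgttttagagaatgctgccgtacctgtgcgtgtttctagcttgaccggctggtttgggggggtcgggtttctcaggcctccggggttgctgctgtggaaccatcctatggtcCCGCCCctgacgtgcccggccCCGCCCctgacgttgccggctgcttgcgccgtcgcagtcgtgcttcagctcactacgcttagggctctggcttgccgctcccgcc
Ftsj3: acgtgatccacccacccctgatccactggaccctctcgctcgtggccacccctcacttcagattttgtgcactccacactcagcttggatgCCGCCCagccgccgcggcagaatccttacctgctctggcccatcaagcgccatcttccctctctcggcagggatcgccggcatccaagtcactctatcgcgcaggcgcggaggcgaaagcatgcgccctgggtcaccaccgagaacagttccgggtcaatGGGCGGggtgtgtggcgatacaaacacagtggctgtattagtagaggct

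Among the 6 members with CACGTG (Mybbp1a, Nop2, Pes1, Tsr1, Utp20 and Wdr43), Nop2 and Utp20 had the largest day 3 differences and are shown for where the motif lies. In Nop2 (chr6:125131633-125131932, plus strand) it began 60 bases before the start, and in Utp20 (chr10:88826765-88827064, minus strand) 38 bases after it, and it stands in capitals.
Nop2: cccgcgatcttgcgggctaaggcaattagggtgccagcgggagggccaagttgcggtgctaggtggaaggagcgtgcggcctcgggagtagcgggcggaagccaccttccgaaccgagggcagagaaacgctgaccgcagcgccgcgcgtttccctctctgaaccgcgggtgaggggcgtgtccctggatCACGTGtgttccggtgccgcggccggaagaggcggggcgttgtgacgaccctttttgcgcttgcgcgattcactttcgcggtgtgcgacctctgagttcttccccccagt
Utp20: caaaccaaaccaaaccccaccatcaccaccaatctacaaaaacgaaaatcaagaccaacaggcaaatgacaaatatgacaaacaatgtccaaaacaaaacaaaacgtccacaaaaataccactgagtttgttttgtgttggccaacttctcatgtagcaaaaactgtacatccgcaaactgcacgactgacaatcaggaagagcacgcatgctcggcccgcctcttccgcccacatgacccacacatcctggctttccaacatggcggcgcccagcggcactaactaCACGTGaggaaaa

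These 4 promoters were chosen after the values were seen. The median day 3 difference between Taf1 KO and control cells was 0.82 on the log2 scale for the 6 members with CACGTG and 0.77 for the 27 without it. A match is a description of these windows and says nothing of binding.

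The module took its largest share of the transcripts at day 0 in both genotypes and a smaller one at each later stage. In control cells the mean share was higher at day 5 of both courses than at day 3. At day 0 the 40 genes summed to 0.412% ± 0.0614 of the TPM in Taf1 KO libraries and 0.439% ± 0.0346 in control libraries (mean ± SD, n = 3 each). At day 3 the share was 0.293% ± 0.0314 in Taf1 KO and 0.199% ± 0.0258 in control libraries, and the lowest Taf1 KO library, at 0.258%, lay above the highest control library, at 0.219%. At day 5 of the macrophage course the order was turned, with 0.197% ± 0.00236 in Taf1 KO and 0.224% ± 0.015 in control cells. Without Npm1 the libraries of that stage overlapped, at 0.141% to 0.144% in Taf1 KO and 0.142% to 0.156% in control cells. In the granulocyte course of that day the libraries overlapped, at 0.241% to 0.268% in Taf1 KO and 0.256% to 0.282% in control cells, and without Npm1 at 0.166% to 0.19% and 0.166% to 0.174%. Day 7 again had the higher share in Taf1 KO cells, at 0.225% ± 0.00805 against 0.187% ± 0.0192 in the macrophage course and 0.17% ± 0.00291 against 0.133% ± 0.0136 in the granulocyte course. Npm1 alone made up a large part of these sums (913 to 1329 TPM in Taf1 KO and 1326 to 1557 TPM in control cells at day 0), so the median member was followed as well. On the log2(TPM + 1) scale it stood at 5.52 ± 0.14 in Taf1 KO and 4.45 ± 0.24 in control cells at day 3, and at 4.97 ± 0.06 and 4.94 ± 0.06 in Taf1 KO and control cells at day 5 of the macrophage course. At day 5 of the granulocyte course it stood at 5.30 ± 0.085 in Taf1 KO and 5.16 ± 0.095 in control cells.

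**Figure D1:**
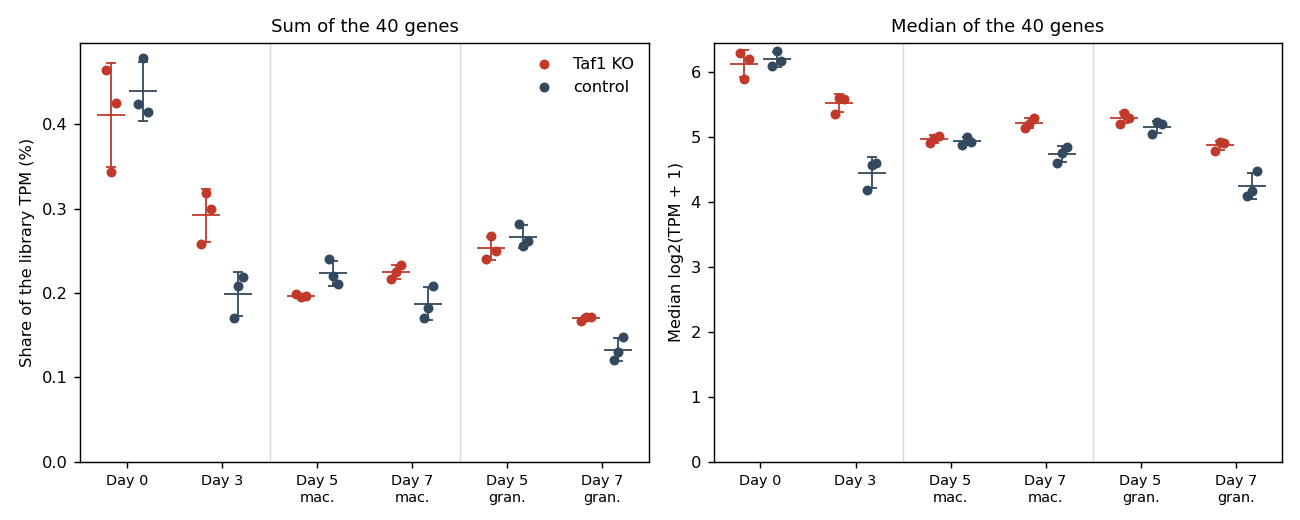
Share of the library's TPM taken by the 40 genes (left, percent) and the median log2(TPM + 1) over the 40 genes (right) at each day and course, in Taf1 KO (red) and control (dark blue) libraries. Points are libraries, and the lines are the mean ± SD of 3 libraries. At day 3 all Taf1 KO points lie above all control points in both panels, and at day 5 the medians of the genotypes are close.

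Over the first 3 days every member declined in control cells, and the decline was smaller in Taf1 KO cells for most of them. In Taf1 KO cells 37 of 40 members fell, with a median change of -0.58 on the log2 scale, and in control cells 40 of 40 fell, with a median of -1.37 (limma adjusted p under 0.05, tested over all genes). Of all genes tested, 35.9% fell in Taf1 KO cells and 39.6% in control cells, and 58.8% and 73% changed in either direction. Cad, the enzyme of the first steps of pyrimidine synthesis, showed the largest fall in both genotypes, with 32.27, 42.65 and 40.48 TPM in Taf1 KO cells at day 3 against 91.96, 83.17 and 86.86 TPM at day 0. In control cells Cad stood at 8.73, 11.35 and 11.42 TPM at day 3 against 67.16, 81.58 and 72.97 TPM at day 0. The libraries of the days did not overlap in either genotype, and the log2 changes were -1.17 ± 0.13 in Taf1 KO and -2.71 ± 0.13 in control cells (± SE; limma adjusted p = 2.63e-07 and 3.55e-13). Npm1 (-0.22), Nop58 (-0.40) and Nop14 (-0.33) were the 3 members that did not pass in Taf1 KO cells. Myc itself, which encodes the transcription factor, fell by 0.37 ± 0.15 in Taf1 KO and 0.73 ± 0.15 in control cells (limma adjusted p = 0.0465 and 0.000242), and the Taf1 KO value did not pass after median-of-ratios scaling (-0.24, limma adjusted p = 0.16).

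The difference between the genotypes in this change was tested directly, as an interaction. It was positive for all 40 members, with a median of 0.78, and passed for 30 of them, all with the smaller fall in Taf1 KO cells, against 15% of all genes. The median over all genes was -0.05. Cad (1.54 ± 0.18, limma adjusted p = 7.72e-06), Ftsj3, a 60S assembly methyltransferase (1.53 ± 0.24, adjusted p = 0.000127), Bop1, a subunit of the PeBoW complex of 60S assembly (1.42 ± 0.21, adjusted p = 6.51e-05), Nolc1, a chaperone of snoRNPs (1.29 ± 0.23, adjusted p = 0.000413), and Polr1b, a large subunit of RNA polymerase I (1.19 ± 0.21, adjusted p = 0.000315), differed most. Npm1, a histone chaperone and the most abundant member, differed by 0.55 ± 0.18 (limma adjusted p = 0.023). The difference did not pass for Myc (0.36), Odc1 (0.12), Polr1c (0.25), Ncl (0.38), Nop58 (0.51), Wdr43 (0.32), Nop14 (0.25), Wdr12 (0.40), Wdr74 (0.37) and Rrp1b (0.33). With each library left out in turn 25 to 31 members passed.

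**Figure D2:**
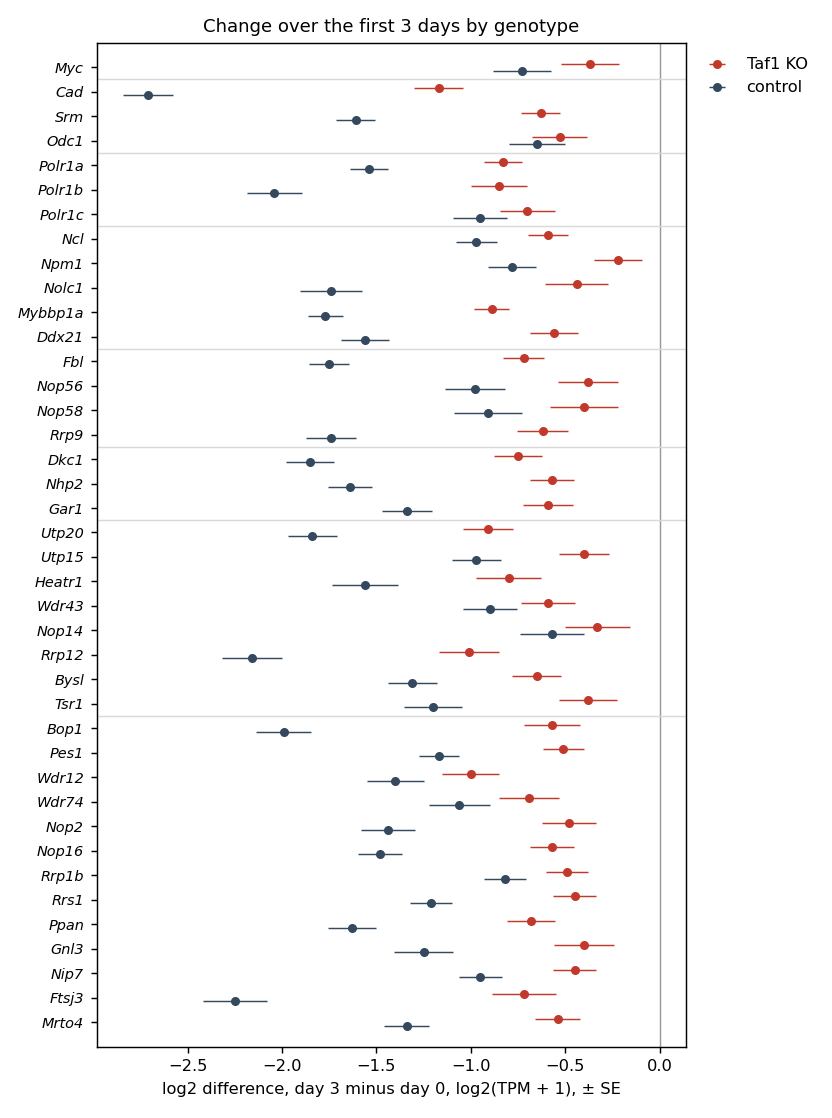
Change of each member over the first 3 days, day 3 minus day 0 on the log2(TPM + 1) scale, in Taf1 KO (red) and control (dark blue) cells, with SE bars. Genes are ordered by role, and grey lines part the roles. Every red point lies to the right of the blue point of the same gene, and all points are below 0, the lowest being Cad in control cells at -2.71.

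At day 3 itself most of the machinery was more highly expressed in Taf1 KO cells. Of the 40 members 34 rose relative to control cells and 0 fell, against 26.5% of all genes higher and 26.7% lower (53.2% in either direction). After median-of-ratios scaling, which sets the median gene of the libraries level, 36 members were higher and 0 lower, against 27.1% and 31.1% of all genes (58.2% in either direction). The median difference was 0.79 on the log2 scale over the members and -0.01 over all genes. For 35 members the libraries did not overlap, every Taf1 KO library being higher, against 31.1% of all genes. Among the growth genes, Myc had 83.72, 99.74 and 102.88 TPM in Taf1 KO cells and 46.98, 65.45 and 71.46 TPM in control cells, a log2 difference of 0.65 ± 0.15 (limma adjusted p = 0.00141). The groups did not overlap, and control replicate 1 was the lowest library. Cad was 3.66 times as high by the ratio of mean TPM, a log2 difference of 1.78 ± 0.13 (limma adjusted p = 3.28e-09). Of the polyamine enzymes, Srm, spermidine synthase, rose by 0.48 ± 0.10 (limma adjusted p = 0.000554), whereas Odc1, ornithine decarboxylase, overlapped between the genotypes at 90.88 to 109.2 TPM in Taf1 KO and 106.04 to 116.43 TPM in control cells (-0.16, limma adjusted p = 0.373).

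Of the RNA polymerase I subunits, the large subunits Polr1a and Polr1b rose, and Polr1c, which is shared with RNA polymerase III, did not pass (0.08, limma adjusted p = 0.667). Polr1b had 19.28, 25.68 and 23.48 TPM in Taf1 KO cells and 6.13, 10.89 and 10.72 TPM in control cells, 1.25 ± 0.15 on the log2 scale (limma adjusted p = 9.29e-07). Each Taf1 KO library was above each control library. Among the 5 nucleolar proteins, Nolc1 (1.22 ± 0.165), Mybbp1a (0.85 ± 0.09) and the helicase Ddx21 (0.73 ± 0.13) rose. Nucleolin (Ncl) and nucleophosmin (Npm1), the best known structural proteins of the nucleolus, overlapped between the genotypes. Ncl had 24.08, 28.68 and 24.04 TPM in Taf1 KO cells and 21.23, 23.38 and 24.1 TPM in control cells, and Npm1 had 862.38, 1099.76 and 990.29 TPM in Taf1 KO cells and 710.54, 868.16 and 905.83 TPM in control cells. Their log2 differences were 0.15 ± 0.11 and 0.25 ± 0.13 (limma adjusted p = 0.241 and 0.103), with 95% intervals of -0.07 to 0.37 and -0.01 to 0.51.

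All 7 members that encode snoRNP proteins rose at day 3. The proteins of box C/D snoRNPs, whose RNAs guide ribose methylation, rose by 0.52 (Nop56), 0.57 (Nop58), 0.81 (the methyltransferase fibrillarin, Fbl) and 1.0 (Rrp9, a protein of the U3 snoRNP). Of the proteins of box H/ACA snoRNPs, whose RNAs guide pseudouridylation, Nhp2 rose by 1.16 ± 0.12 (limma adjusted p = 1.59e-07), with 146.56, 170.89 and 177.52 TPM in Taf1 KO cells and 65.01, 77.48 and 77.57 TPM in control cells. The pseudouridine synthase dyskerin (Dkc1) rose by 0.99 and Gar1 by 0.54. All 8 factors of the small subunit processome and later 40S assembly rose, from 0.45 for Wdr43 and Nop14 to 1.02 for Heatr1.

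Of the 13 factors of 60S assembly 11 rose at day 3, and the 2 others, Wdr12 (0.36, limma adjusted p = 0.0526) and Gnl3 (0.38, limma adjusted p = 0.0502), lay just outside the threshold. Bop1 had 57.98, 64.05 and 63.54 TPM in Taf1 KO cells and 15.15, 18.85 and 19.12 TPM in control cells, and Ftsj3 had 52.61, 65 and 63.63 TPM and 14.09, 21.36 and 21.32 TPM in Taf1 KO and control cells. Both were more than 3 times as high by mean TPM, with log2 differences of 1.75 ± 0.15 and 1.64 ± 0.17 (limma adjusted p = 1.44e-08 and 1.95e-07). The 3 subunits of the PeBoW complex thus differed in size of effect, with Bop1 at 1.75, Pes1 at 0.80 and Wdr12 at 0.36. The methyltransferase Nop2 rose by 1.09, Nop16 by 1.02, Mrto4 by 0.82, Ppan by 0.80, Wdr74 by 0.77, Nip7 by 0.72, Rrp1b by 0.62 and Rrs1 by 0.57. Leaving out each library in turn, 30 to 37 members were called, fewest without control replicate 1.

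**Figure D3:**
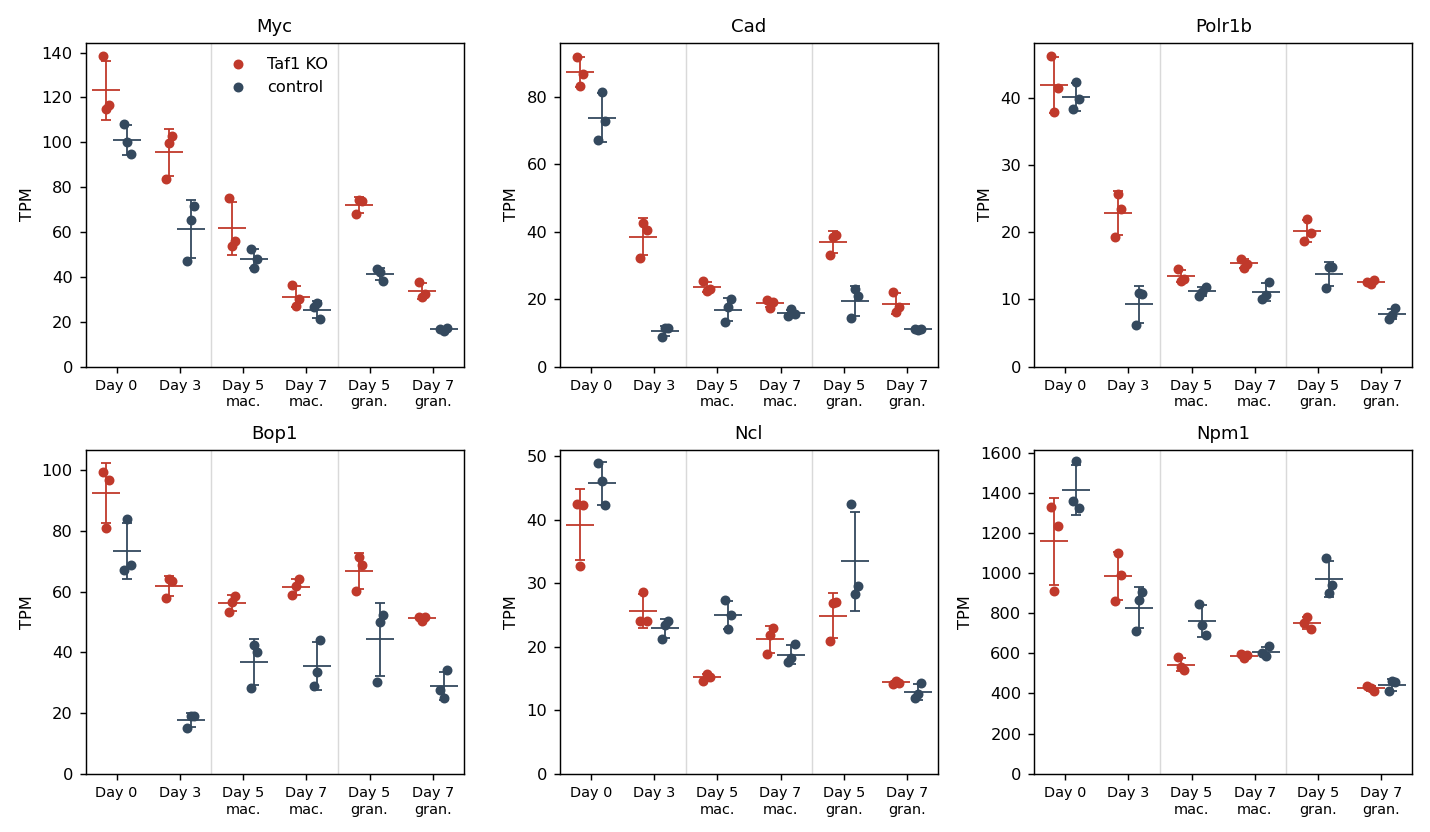
TPM of Myc, Cad, Polr1b, Bop1, Ncl and Npm1 at each day and course in Taf1 KO (red) and control (dark blue) libraries, with the mean ± SD of 3 libraries. At day 3 the Taf1 KO libraries of Myc, Cad, Polr1b and Bop1 lie above the control libraries, whereas those of Ncl and Npm1 overlap. At day 5 of the macrophage course every Taf1 KO library of Ncl and Npm1 lies below every control library.

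Other lists of the same machinery were higher at day 3 as well. Of 45 further 40S assembly factors 34 rose and 1 fell, with Tbl3 at 1.36, Pdcd11 at 1.23, Wdr46 at 1.17 and Nol6 at 0.94. Of 49 further factors of 60S and snoRNP assembly 42 rose and 1 fell, led by Nop10, the small core protein of box H/ACA snoRNPs (1.80 ± 0.11, limma adjusted p = 2.07e-10), with 203.76 to 260.42 TPM in Taf1 KO cells and 56.45 to 72.91 TPM in control cells. Of 12 other RNA polymerase I subunits and ribosomal DNA transcription factors 7 rose and 2 fell, and of 22 RNA polymerase III subunits and factors 18 rose and 1 fell. Among these the initiation factor Rrn3 rose by 0.74, Taf1c, a subunit of the SL1 complex, by 0.77 and Gtf3a, the 5S RNA gene factor TFIIIA, by 1.01. The median differences were 0.62 for the 40S, 0.65 for the 60S, 0.41 for the polymerase I and 0.44 for the polymerase III list, against -0.01 over all genes.

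Markers of cycling and of other cells differed at the same stage. At day 3, 15 of 16 S phase genes were higher and 1 lower in Taf1 KO cells, with sums of 1860 to 2120 TPM against 926 to 1340 TPM in control cells, and 10 of 16 genes of G2 and mitosis were higher and 0 lower. Of 15 macrophage markers 14 were lower, with sums of 305 to 515 TPM in Taf1 KO and 1500 to 1900 TPM in control cells. All 11 megakaryocyte markers were lower (320 to 671 TPM in Taf1 KO and 1520 to 2570 TPM in control cells), as were 6 of 6 tested eosinophil markers (551 to 640 TPM and 1990 to 3180 TPM in Taf1 KO and control cells) and 6 of 8 tested erythroid markers. The neutrophil list summed to 134000 to 148000 TPM in Taf1 KO and 79000 to 94500 TPM in control cells, most of it S100a8 and S100a9 at 12.1% to 13.5% and 6.58% to 7.96% of the TPM, with 1 of its 15 genes higher and 2 lower. In Taf1 KO cells Hba-a2 and Slc4a1 of the erythroid list were listed at 0 in all 3 libraries. Slc4a1 was also listed at 0 in the control libraries of that day. The part of these markers in the difference of the ribosome assembly genes was not tested.

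At day 0, before culture, the members were close between the genotypes. None of the 40 rose and 2 fell in Taf1 KO cells, against 13.1% of all genes higher and 10.2% lower, and 9 members had an unadjusted p under 0.05. The median was -0.03 over the members and 0.06 over all genes. Srm had 109.97, 86.19 and 105.62 TPM in Taf1 KO cells and 139.78, 153.35 and 133.61 TPM in control cells (-0.50 ± 0.10, limma adjusted p = 0.00121). Gnl3, nucleostemin, had 74.75, 54.48 and 67.04 TPM in Taf1 KO cells and 89.32, 103.06 and 80.56 TPM in control cells (-0.47 ± 0.16, limma adjusted p = 0.0342), and did not pass when any of 4 libraries was left out. Myc (0.28), Cad (0.24), Bop1 (0.33), Polr1b (0.06), Ncl (-0.23) and Npm1 (-0.30) did not pass (limma adjusted p = 0.196, 0.194, 0.107, 0.837, 0.136 and 0.0903). After median-of-ratios scaling 8 members were lower and 0 higher, against 14.8% and 10.9% of all genes, with Ncl (-0.30) and Npm1 (-0.38) among the 8. Without histone and short structural RNA genes the balance was the other way, with 4 higher and 2 lower, Bop1 among those higher (0.38, limma adjusted p = 0.0391). The share of all genes was not counted in that setting. Some cell markers did differ at day 0. Lower in Taf1 KO cells were 5 of 6 tested eosinophil, 5 of 8 tested erythroid and 5 of 10 dendritic markers, with 0 higher. The neutrophil list summed to 27800 to 48000 TPM in Taf1 KO and 12900 to 22400 TPM in control cells, with 3 of 15 genes higher and 0 lower. The part of these markers was not tested.

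At day 5 Cad and Bop1 were higher and Ncl, Npm1, Srm and Odc1 lower in Taf1 KO cells of both courses. Most members did not pass, 33 in the macrophage and 29 in the granulocyte course. In the macrophage course 2 members rose, against 5.11% of all genes, and 5 fell, against 37.9%, with 43% of all genes called in either direction. For 8 members every Taf1 KO library was higher and for 10 every one was lower, against 7.94% and 46% of all genes. Ncl had 14.6, 15.65 and 15.28 TPM in Taf1 KO cells and 27.29, 22.82 and 24.98 TPM in control cells, -0.68 ± 0.11 on the log2 scale (limma adjusted p = 4.84e-05). Npm1 had 579.74, 533.2 and 516.99 TPM in Taf1 KO cells and 846.43, 741.81 and 689 TPM in control cells (-0.48 ± 0.13, limma adjusted p = 0.00491). Neither gene overlapped between the genotypes. Odc1 (-0.65), Srm (-0.48) and Utp20 (-0.36) fell as well, and Bop1 (0.61 ± 0.15, limma adjusted p = 0.00228) and Cad (0.47 ± 0.13, limma adjusted p = 0.00653) rose. Myc (0.34) and Polr1b (0.25) did not pass (limma adjusted p = 0.0793 and 0.179). The median was -0.01 over the members and -0.23 over all genes, and after median-of-ratios scaling 19 members were higher and 3 lower (0.23 over the members, -0.015 over all genes), against 18.8% and 19.8% of all genes (38.6% in either direction). So the sign of the module's median at this stage followed the scaling, whereas Bop1 and Cad stayed higher and Ncl, Odc1 and Srm stayed lower under both. Cad did not pass without control replicate 1, which stands apart at this day (0.31, limma adjusted p = 0.0512), or with the compared groups alone (0.0543).

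In the granulocyte course at day 5, 7 members rose and 4 fell, against 9.2% and 22.8% of all genes. Myc had 67.96, 74.3 and 74.02 TPM in Taf1 KO cells and 43.37, 42.16 and 38.09 TPM in control cells, 0.79 ± 0.12 on the log2 scale (limma adjusted p = 5.68e-05). The lowest Taf1 KO library lay far above the highest control library. Cad (0.92 ± 0.15, limma adjusted p = 7.43e-05), Bop1 (0.62), Polr1b (0.52), Nop2 (0.39), Pes1 (0.32) and Rrp1b (0.31) rose, and Odc1 (-0.58), Srm (-0.45), Ncl (-0.40) and Npm1 (-0.37) fell. Ncl had 20.87, 26.84 and 26.99 TPM in Taf1 KO cells and 42.47, 28.25 and 29.63 TPM in control cells, so that control replicate 1, which stands apart in its neutrophil genes, gave the highest value. Without that library 6 members were called in place of 11, and Ncl (-0.22, limma adjusted p = 0.205), Npm1 (-0.29, 0.114), Polr1b (0.42, 0.0627) and Pes1 (0.29, 0.0981) no longer passed. The median was 0.11 over the members and -0.09 over all genes, and after scaling 13 members were higher and 4 lower, against 18% and 22.3% of all genes (40.3% in either direction).

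At day 5 the direction of the related lists followed the scaling in the macrophage course, like that of the members, and not in the granulocyte course. In the macrophage course 2 of 45 further 40S factors rose and 5 fell, and 1 of 49 further 60S factors rose and 8 fell, with Nop10 higher (0.67) and Rpf1 lower (-0.64). In the granulocyte course 8 of the 45 rose and 2 fell, and 5 of the 49 rose and 4 fell, with Nop10 at 1.01 and Wdr46 at 0.51 and the late 40S factor Ltv1 lower at -0.77. After scaling the balance turned in the macrophage course, with 22 of the 45 higher and 1 lower and 18 of the 49 higher and 2 lower. The scaled counts of the granulocyte course were 20 higher and 2 lower of the 45, and 16 higher and 5 lower of the 49. The shares of all genes higher and lower are those given for the members in each course. S phase genes were lower for 8 of 16 in the macrophage course and 3 of 16 in the granulocyte course and higher for 0 in both, and macrophage markers were lower for 13 of 15 in each course. The sums of those macrophage markers were 1400 to 1540 TPM in Taf1 KO and 2960 to 4020 TPM in control cells of the macrophage course, and their part in the member values was not tested. Genes of G2 and mitosis were lower for 8 and 6 of 16 and megakaryocyte markers for 8 and 5 of 11 in the macrophage and granulocyte courses, with 0 higher. The neutrophil list summed to 190000 to 250000 TPM in Taf1 KO and 59700 to 166000 TPM in control cells of the macrophage course, and to 189000 to 232000 TPM and 64800 to 164000 TPM in the granulocyte course. Most of each sum was S100a8 and S100a9. Of the 15 neutrophil genes 3 were higher and 5 lower in the macrophage course, with a median log2 difference of -0.58. The granulocyte course had 1 higher and 5 lower, with a median of -0.45. The part of these markers was not tested either.

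At day 7 the members were again mostly higher in Taf1 KO cells. Short structural RNA genes moved the other way, with 10.3%, 4.93% and 5.52% of the TPM in Taf1 KO and 11.3% to 12.1% in control cells of the macrophage course, and 7.59%, 2.94% and 2.89% against 9.31% to 11.7% in the granulocyte course, Taf1 KO replicate 1 being the highest of its genotype in both. Without histone and short structural RNA genes 16 members were higher and 1 lower in the macrophage course and 27 higher and 0 lower in the granulocyte course. The share of all genes was not counted in that setting. In the macrophage course 23 rose and 0 fell, against 27.4% of all genes higher and 12.5% lower (39.9% in either direction), with a median of 0.41 over the members and 0.12 over all genes. Heatr1, a factor of the small subunit processome (Utp10 in yeast), rose most, with 32.73, 46.85 and 48.67 TPM in Taf1 KO cells and 17.28, 18.47 and 25.17 TPM in control cells (1.04 ± 0.17, limma adjusted p = 0.000126). Bop1 had 58.84, 61.7 and 64.1 TPM in Taf1 KO cells and 28.88, 33.4 and 44.11 TPM in control cells (0.80 ± 0.15, limma adjusted p = 0.000273). Neither gene overlapped between the genotypes. Wdr74 (0.73), Ftsj3 (0.72), Nop2 (0.66), Pes1 (0.51), Mybbp1a (0.44) and Polr1b (0.44) rose as well, and Nip7, which assists 60S maturation, by 0.48. Polr1b did not pass after scaling (0.29, limma adjusted p = 0.0712), without histone and short structural RNA genes (0.33, 0.098) or when any of 4 libraries was left out. Myc overlapped, with 36.16, 27.08 and 30.31 TPM in Taf1 KO cells and 26.37, 28.52 and 21.32 TPM in control cells (0.29, limma adjusted p = 0.146), and Cad (0.23), Ncl (0.16) and Npm1 (-0.05) did not pass either (limma adjusted p = 0.162, 0.234 and 0.793). After scaling 17 members were higher and 1 lower, against 18.6% and 21.6% of all genes (40.2% in either direction), and without control replicate 1 of day 7 there were 13 calls in place of 23.

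In the granulocyte course at day 7, 30 members rose and 0 fell, against 32.1% of all genes higher and 12% lower (44.1% in either direction), with a median of 0.53 over the members and 0.17 over all genes. Myc had 37.88, 30.81 and 32.46 TPM in Taf1 KO cells and 16.87, 15.76 and 17.1 TPM in control cells, 2.03 times as much by mean TPM (0.98 ± 0.12, limma adjusted p = 4.56e-06). Every Taf1 KO library was well above every control library. Nop2 had 43.77, 48.5 and 51.72 TPM in Taf1 KO cells and 23.66, 25.72 and 31.1 TPM in control cells (0.82 ± 0.14, limma adjusted p = 0.000136), and Bop1 rose by 0.81 ± 0.16 (limma adjusted p = 0.000371). Rrp9 (0.75), Ppan (0.72), Nolc1 (0.71), Cad (0.68), Polr1b (0.63) and Pes1 (0.57) rose too, as did all 3 polymerase I subunits and all 4 box C/D members, of which 2 and 2 were higher after scaling. Ncl had 14.09, 14.67 and 14.37 TPM in Taf1 KO cells and 11.9, 12.54 and 14.28 TPM in control cells (0.15, limma adjusted p = 0.398), and Npm1 had 435.65, 428.85 and 410.27 TPM and 410.38, 462.98 and 458.21 TPM in Taf1 KO and control cells (-0.06, limma adjusted p = 0.721). After scaling 22 members were higher and 1, Npm1, lower (-0.28, limma adjusted p = 0.0369), against 20.5% and 24.8% of all genes.

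The lists of further 40S and 60S factors were mostly higher at day 7 as well, before scaling. Further 40S factors rose for 27 of 45 in the macrophage course and 31 of 45 in the granulocyte course, and further 60S factors for 30 and 32 of 49, with 1 and 0 of the 40S factors and 0 of the 60S factors lower. After scaling 18 and 23 of the 40S factors were higher and 1 lower in each course, and 23 and 25 of the 60S factors were higher and 4 lower in each. Of the 12 other polymerase I factors 6 were higher and 1 lower in each course. After scaling 3 and 5 of them were higher and 2 and 1 lower. Of the 22 polymerase III factors 9 and 12 were higher and 1 and 0 lower. After scaling 4 and 8 of these were higher and 2 lower in each course. The shares of all genes, before and after scaling, are those given for the members of each course. Wdr46 rose by 0.64 and 0.83 and Nop10 by 0.67 and 0.91 in the macrophage and granulocyte courses. Genes of G2 and mitosis moved the other way from the members at this day. Of 16 genes of G2 and mitosis 12 were lower in the macrophage course (836 to 901 TPM in Taf1 KO and 1190 to 1230 TPM in control cells) and 15 in the granulocyte course (530 to 696 TPM and 828 to 934 TPM in Taf1 KO and control cells), and S phase genes were higher for 0 and 1 of 16. Progenitor markers were higher for 5 and 8 of 10 and lower for 0, with sums of 271 to 287 TPM and 232 to 247 TPM in Taf1 KO and control cells of the macrophage course and 441 to 476 TPM and 313 to 344 TPM in the granulocyte course. Mast cell and basophil markers were higher for 5 and 6 of 9, with 2050 to 6550 TPM in Taf1 KO and 1710 to 2240 TPM in control cells of the granulocyte course, and dendritic markers for 6 and 5 of 10. These lists share genes with the progenitor list, Gata2 with the mast cell and basophil list and Flt3 with the dendritic list. Megakaryocyte markers summed to 1840 to 2270 TPM in Taf1 KO and 430 to 455 TPM in control cells of the macrophage course, where 2 of 11 were higher and 1 lower, and to 1280 to 1790 TPM and 326 to 536 TPM in the granulocyte course, where 8 were higher. Macrophage markers were higher for 6 and lower for 1 of 15 in the macrophage course, and higher for 2 and lower for 10 in the granulocyte course. The part of these cells in the result was not tested.

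**Figure D4:**
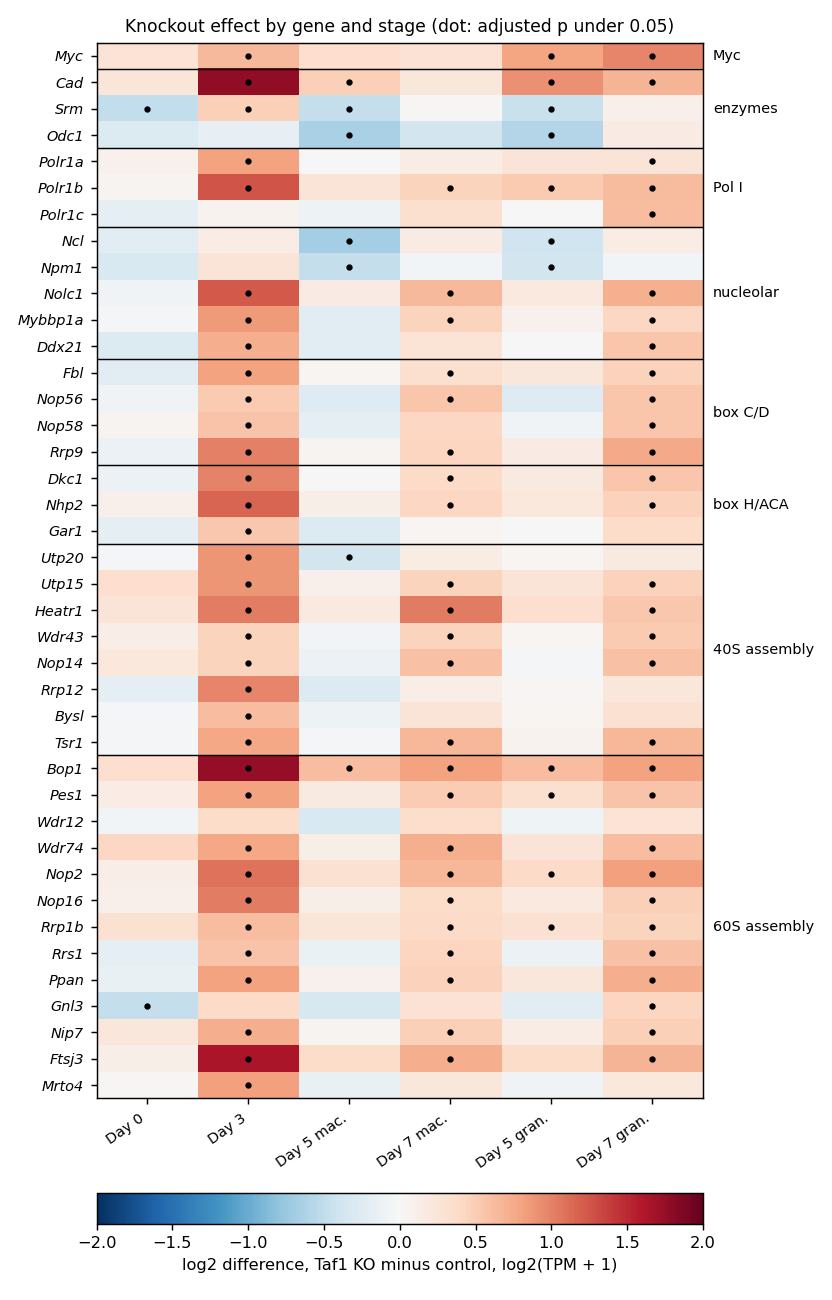
Log2 difference, Taf1 KO minus control, for each member (rows, by role) at each stage (columns), on the log2(TPM + 1) scale. Red is higher and blue lower in Taf1 KO cells, and a dot marks limma adjusted p under 0.05. The day 3 column holds 34 dots, all red, and the day 7 columns 23 and 30 red dots, whereas Srm, Odc1, Ncl, Npm1, Utp20 and Gnl3 carry the blue dots at day 0 and day 5.

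Across the stages, 23 of the 40 members were higher at day 3 and at day 7 of both courses, against 10.5% of all genes. Bop1 was the one member higher at 5 of the 6 stages, all but day 0. Cad, Polr1b, Pes1, Nop2 and Rrp1b were higher at 4. Odc1, Ncl, Npm1 and Wdr12 were higher at none, and 3 members, Srm, Utp20 and Gnl3, were higher at 1 stage or more and lower at another. The polyamine enzymes Srm and Odc1 and the abundant nucleolar proteins Ncl and Npm1 were lower at day 5 of both courses. That Utp20 and Npm1 fell at day 5 of the macrophage course did not hold after scaling (-0.13 and -0.22, limma adjusted p = 0.368 and 0.10).

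From day 3 to day 7 the genotypes drew closer for part of the module. In the macrophage course 2 members rose and 14 fell in Taf1 KO cells (36.3% and 25.7% of all genes), and 16 rose and 6 fell in control cells (34.5% and 28.9% of all genes). The genotype difference of this change was negative and passed for 16 members and positive for 0, against 13.4% and 21.8% of all genes. Bop1 showed no change in Taf1 KO cells beyond the spread (-0.01, limma adjusted p = 0.973) and rose by 0.95 ± 0.15 in control cells (limma adjusted p = 1.05e-05), a difference of -0.96 ± 0.21 (adjusted p = 0.00145). Cad fell by 0.99 in Taf1 KO and rose by 0.55 in control cells, a difference of -1.54 ± 0.18 (limma adjusted p = 4.23e-06), and Ftsj3 differed by -0.92 ± 0.24 and Polr1b by -0.80 ± 0.21 (adjusted p = 0.006 and 0.00545). Myc, by contrast, fell in both, by 1.59 in Taf1 KO and 1.23 in control cells, with no difference that passed (-0.36, limma adjusted p = 0.205), and Ncl (0.01) and Npm1 (-0.30) did not differ beyond their error either (adjusted p = 0.961 and 0.206).

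In the granulocyte course 0 members rose and 28 fell from day 3 to day 7 in Taf1 KO cells (27.1% and 28.7% of all genes), and 4 rose and 18 fell in control cells (19.7% and 35% of all genes). After scaling 9 rose and 13 fell in control cells, against 35% and 26.6% of all genes, and their median turned to 0.028, against -0.18 before it. Bop1 (0.67), Ftsj3 (0.64), Rrp12 (0.44) and Utp20 (0.38) were the 4 that rose in control cells. Npm1 fell by 1.20 in Taf1 KO and 0.89 in control cells, Ncl by 0.79 and 0.78 and Myc by 1.47 and 1.80, and their genotype differences did not pass (-0.31, -0.003 and 0.33, limma adjusted p = 0.186, 0.993 and 0.153). The genotype difference passed for 12 members, all negative, against 11.4% of all genes negative and 22.3% positive. Cad (-1.09 ± 0.21, limma adjusted p = 0.000496), Ftsj3 (-0.96 ± 0.25, adjusted p = 0.00639), Bop1 (-0.94 ± 0.22, adjusted p = 0.00311) and Polr1b (-0.61 ± 0.22, adjusted p = 0.0336) were among them, the last not when any of 7 of the 12 libraries of this comparison was left out, for example control replicate 1 of day 3 (-0.37, adjusted p = 0.096). These tests use the day 3 libraries that also enter the day 3 comparison, so they are no independent account of it.

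Whether the knockout effect at day 7 differed between the lineages was tested among the 12 libraries of that day. No member passed (limma, 0 of 40), 3 had an unadjusted p under 0.05, and 3.26% of all genes passed. Those 3 were Myc (-0.69 ± 0.18, macrophage minus granulocyte, limma adjusted p = 0.0666), Odc1 (-0.52 ± 0.15, 0.099) and Cad (-0.45 ± 0.15, 0.137), with 95% intervals of -1.09 to -0.29, -0.85 to -0.18 and -0.78 to -0.12. The other members named in every comparison had differences of -0.19 for Polr1b, 0.015 for Ncl, 0.013 for Npm1 and -0.016 for Bop1 (limma adjusted p = 0.551, 0.981, 0.976 and 0.986). With the replicate number as a block, Myc (limma adjusted p = 0.0343) and Odc1 (0.0236) passed, and Odc1 also passed after scaling (-0.48, 0.0295). Whether replicate numbers pair the libraries of both courses was not tested, so the count of 0 depends on leaving such a pairing out.

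Of the Myc network, 12 of 13 listed symbols were in the tables. In Taf1 KO cells 2 of these 12 rose and 1 fell at day 3, 2 rose and 2 fell at day 5 of the macrophage course, and 3 rose and 1 fell at day 5 of the granulocyte course. Of all genes 26.5%, 5.11% and 9.2% were higher and 26.7%, 37.9% and 22.8% lower in these comparisons. At day 7 of the macrophage course 1 rose and 1 fell, against 27.4% of all genes higher and 12.5% lower. At day 7 of the granulocyte course 3 rose and 0 fell, against 32.1% and 12%. After scaling 0 and 2 were higher and 3 lower in each course. The scaled shares of all genes were 18.6% higher and 21.6% lower in the macrophage course, and 20.5% and 24.8% in the granulocyte course. At day 3 Max, the partner of Myc, rose by 0.52 ± 0.09 (limma adjusted p = 6.27e-05), with 35.4 to 41.27 TPM in Taf1 KO and 24.07 to 29.04 TPM in control cells. Mxd3, which pairs with Max and is known as a repressor in cycling cells, rose by 1.39 ± 0.20 (limma adjusted p = 1.14e-05), and Mycn, a Myc family member, fell by 0.73 ± 0.18 (limma adjusted p = 0.00255). Mxd1 (-0.38), Mxd4 (0.19), Mxi1 (-0.32), Mnt (-0.20), Mga (-0.05), Mlx (0.0025), Mlxip (0.08), Mycl (0.10) and Zbtb17 (-0.07) did not pass at day 3. At day 0 Mycl was the single one to pass (-0.80). At day 5 Mxd3 rose in both courses (0.76 and 0.52 in the macrophage and granulocyte courses) and so did Mxd4 (0.33 and 0.57), Mnt and Mga fell in the macrophage course (-0.55 each), and Mlx fell (-0.55) and Mycn rose (0.62) in the granulocyte course. At day 7 Mlxip rose in both courses (0.57 and 0.60), Mxd1 fell in the macrophage course (-0.54), and Mxd4 (0.60) and Mycn rose in the granulocyte course. Mycn had 1.57 to 4.1 TPM in Taf1 KO and 0.18 to 0.39 TPM in control cells there, 1.51 ± 0.18 on the log2 scale (limma adjusted p = 2.91e-06), at a far lower level than Myc.

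Rpl5 and Rpl11 form the 5S ribonucleoprotein, which is known to bind Mdm2, the ligase that degrades p53. At day 0, Cdkn1a, the p21 cell cycle inhibitor and a p53 target, rose by 1.95 ± 0.18 (limma adjusted p = 1.57e-07), with 9.24 to 9.47 TPM in Taf1 KO and 1.35 to 2.19 TPM in control cells, while Rpl5 (-0.45) and Rpl11 (-0.34) fell. At day 3 Trp53, the p53 gene, rose by 0.77 ± 0.10 (limma adjusted p = 3.7e-06) and Rpl5 fell by 0.52, whereas Mdm2 (-0.32) and Cdkn1a (-0.27) did not pass (limma adjusted p = 0.0874 and 0.208). At day 5 Rpl5 fell in both courses (-0.58 and -0.43) and Cdkn1a rose (0.60 and 0.69), and in the macrophage course Mdm4 (-0.47) and Rpl11 (-0.26) fell as well. At day 7 Cdkn1a (1.34 and 1.77), Mdm2 (1.02 and 0.58) and Trp53 (0.48 and 0.55) rose in both courses. Cdkn2a, which encodes the p16 and Arf inhibitors, rose in the granulocyte course (2.29 ± 0.30, limma adjusted p = 6.65e-06), with 2.7 to 12.31 TPM in Taf1 KO and 0.45 to 1.01 TPM in control cells, and Rpl5 fell in the macrophage course (-0.42).

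Within the polymerase I factors, Taf1d, a subunit of the SL1 complex, went against the members and fell at all 6 stages. The log2 differences were -0.91 ± 0.145 at day 0 (limma adjusted p = 0.000116) and -0.74 at day 3, at day 5 -1.16 in the macrophage and -0.86 in the granulocyte course, and at day 7 -0.74 and -0.61. Ubtf, which binds ribosomal DNA as an architectural factor, fell at day 0 (-0.34) and at day 5 of the macrophage course (-0.47) and rose at day 3 (0.45). Rrn3, Taf1c and Polr1e rose at day 7 of the macrophage course (0.52, 0.60 and 0.45), and Gtf3a of the polymerase III list rose at all 6 stages, from 0.38 at day 5 of the macrophage course to 1.01 at day 3.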

How the data were processed

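RNA was measured by sequencing in 36 libraries, in 12 groups of 3. The authors deposited 2 tables of TPM, one per course, whose 12 columns for day 0 and day 3 held equal values. RSEM (version not given in the sources used here), DESeq2 1.38.3 and the build mm10 are named per the submitters' processing notes. RNA was extracted with a column kit and libraries were made with a stranded kit, per the labels' protocols. TPM keeps no depth, so depth per library is unknown, and TPM sums to the same total in each library, so that a few abundant genes can lower all others.

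Values were tested as log2(TPM + 1) with limma 3.58.1 (R 4.3.3), a moderated test with a mean trend and 1 coefficient per group, on genes of at least 1 TPM in at least 3 libraries: 11953 and 11905 in the macrophage and granulocyte courses (24 libraries each) and 11269 among the 12 libraries of day 7. Day 0 and day 3 comparisons came from the macrophage course. The p-values of each of the 16 comparisons were adjusted over all genes (Benjamini-Hochberg), with 0.05 as threshold. Fold changes on this scale understate the change of low genes. An exact permutation test of 3 against 3 libraries cannot go below 0.1 and was not used. On simulated data for the day 3 comparison 92.5% of genes changed by 1 on the log2 scale and 50.5% of those changed by 0.5 were recovered. A change of 0.5 was recovered for 10% of genes in the genotype difference from day 0 to day 3, for 2% and 2.5% in those from day 3 to day 7 (macrophage and granulocyte courses) and for 6.5% in the lineage difference, so a missing call there says little about differences of that size.

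The members and the related lists were chosen with earlier results of these data known, so counts over them are descriptions. Myc, Cad, Ncl, Npm1, Bop1 and Polr1b were named in every comparison, with up to 5 called members in each direction by smallest p, all members of the Myc network, and up to 4 genes by smallest p of each other list. Rpf1, Ltv1, Ubtf and the day 7 repeats of day 3 genes were named after their values were seen. Correlations of deviations between libraries of equal replicate number were all above a fixed cutoff in 2 comparisons. These were day 5 of the macrophage course (0.301, 0.183 and 0.268) and day 3 to day 7 of that course in Taf1 KO cells (0.159, 0.189 and 0.158). Libraries of unlike number were not compared, so whether the numbers pair libraries is not settled. Any such pairing would come from the data and not from the labels. Alternatives covered the pseudocount (0.1 and 5 TPM), the filter (none and 5 TPM), median-of-ratios scaling, leaving out histone and short structural RNA genes, fitting the compared groups alone, the replicate block, and leaving out each library.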

Additional observations from a re-analysis of the deposited data

Results flagged for a closer look

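The change over time differed between the genotypes by an interaction test in 3 comparisons, which share the day 3 libraries. From day 0 to day 3 it passed for 30 members, with Cad at 1.54, Bop1 at 1.42, Polr1b at 1.19 and Npm1 at 0.55 (Taf1 KO change minus control change, log2). From day 3 to day 7 it passed for 16 members in the macrophage course, with Cad at -1.54, Bop1 at -0.96 and Polr1b at -0.80. In the granulocyte course it passed for 12 members, with Cad at -1.09, Bop1 at -0.94 and Polr1b at -0.61. That Polr1b value did not pass when some of the libraries were left out singly. Of all genes 32.3% passed in either direction from day 0 to day 3, and 15% were positive. From day 3 to day 7, 35.2% passed in the macrophage and 33.8% in the granulocyte course, with 13.4% and 11.4% negative.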

How the results depend on the processing

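Of 1797 single gene values under an alternative, 1664 kept their direction and side of the threshold, 64 lost and 29 gained a call, and 40 changed sign, all of them small values. Median-of-ratios scaling moved the count of members called to 8 at day 0, 22 at day 5 of the macrophage course, 17 at day 5 of the granulocyte course, 26 and 22 for the genotype difference from day 3 to day 7 in the macrophage and granulocyte courses, and 1 for the lineage difference. In that order, 25.7%, 38.6%, 40.3%, 42.3%, 44.2% and 5.93% of all genes were called after scaling. At day 3 all 34 members called were called after scaling too, against 17 of 23 and 22 of 30 at day 7 of the macrophage and granulocyte courses. Without histone and short structural RNA genes 6 members were called at day 0 and 1 for the lineage difference. At day 5 of the granulocyte course 6 were called with the compared groups alone, and 7 without control replicates 1 of days 3 and 5 together, a choice made after seeing the data. The replicate block gave 2 for the lineage difference, where pairing by number between the courses was not tested, and moved no other count of calls by over 1.5 times.

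With each library left out, the counts ran from 1 to 3 at day 0, 30 to 37 at day 3, 6 to 8 and 13 to 29 at days 5 and 7 of the macrophage course, and 6 to 10 and 25 to 31 in the granulocyte course. They ran from 10 (without Taf1 KO replicate 2 of day 7) to 16 for day 3 to day 7 of the macrophage course in Taf1 KO cells, 25 to 31, 12 to 19 and 8 to 15 (lowest without Taf1 KO replicate 2 of day 3) for the 3 genotype differences, and 0 to 1 for the lineage difference. The cause of these moves was not tested.

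After scaling the sign changed for Polr1b at day 0 (-0.023), Ncl at day 7 of the granulocyte course (-0.059), Polr1b from day 3 to day 7 of that course in control cells (0.015), Ncl in the macrophage genotype difference of that time (-0.10) and Bop1 in the lineage difference (0.023). Without the histone and structural genes it changed for Cad from day 3 to day 7 of the granulocyte course in control cells (-0.014) and for Ncl in the macrophage genotype difference (-0.084). In the granulocyte genotype difference Ncl was 0.0015 with a pseudocount of 0.1 TPM and 0.048 without control replicates 1 of days 3 and 5, where Cad from day 3 to day 7 in control cells was -0.03. With each library left out, Polr1b at day 0 ran from -0.015 to 0.12, Bop1 from day 3 to day 7 of the macrophage course in Taf1 KO cells from -0.052 to 0.025, and Cad in control cells of the granulocyte course from -0.03 to 0.15. Ncl ran from -0.044 to 0.094 and from -0.055 to 0.078 in the macrophage and granulocyte genotype differences. In the lineage difference Ncl ran from -0.055 to 0.094, Npm1 from -0.018 to 0.069 and Bop1 from -0.15 to 0.15. TPM gives no depth, so no counting error could be set.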
